A study of Homo sapiens with 4 samples.

Results

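Isolated sites at which NRF2 was called in MDA-MB-231 mammospheres both with and without ZMYND8 numbered 265, out of 2030 NRF2 summits in the first control library. A summit is the base with the highest signal within a peak of ChIP-Seq, which sequences the DNA bound by an immunoprecipitated protein. The sites were chosen by the positions of the summits in all 4 lists. An SC replicate 1 summit entered when SC replicate 2 had a summit within 200 bp and ZMYND8 KO replicate 1 or 2 also had one within 200 bp. Summits on the mitochondrial genome and chromosome Y were dropped, as were runs in which 5 neighbouring SC replicate 1 summits lay within 50 kb. Of the 265 sites, 126 were kept in both ZMYND8 KO lists (47.5%), 51 in replicate 1 alone and 88 in replicate 2 alone.

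The study compared 2 libraries from SC mammospheres with 2 from ZMYND8 KO mammospheres, all immunoprecipitated with the same NRF2 antibody. MDA-MB-231 is a human breast cancer cell line, and mammospheres are its suspension cultures, here grown in MammoCult medium on ultralow attachment dishes with no treatment named, which enrich for breast cancer stem cells. The study names the control SC, for scrambled control, while the labels give its genotype as parental. How the ZMYND8 KO line was made, whether it was 1 clone, and whether replicates were separate cultures are not given in the sources used here. No summit list can show the knockout itself.

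NRF2 is a stress-responsive transcription factor. KEAP1 keeps it low by directing it to degradation, and under oxidative stress it accumulates, pairs with small MAF proteins and binds antioxidant response elements (AREs) near genes for glutathione, thioredoxin, iron and NADPH metabolism. ZMYND8 is a histone reader that recognizes acetylated and methylated histone tails. The question behind the comparison was whether NRF2 binding to chromatin depends on ZMYND8, and the isolated kept sites are those at which a peak remained callable without it. The study also reported less NRF2 protein and more KEAP1 in ZMYND8 KO mammospheres of this line. The part of the NRF2 protein level in the summit lists was not tested.

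The lists held 2030 and 6816 summits for SC replicates 1 and 2 and 394 and 477 for ZMYND8 KO replicates 1 and 2. Each summit carries a score, read as the −log10 of its q-value because the lowest score of all, 1.32, lay just above −log10 of 0.05. The score grows with sequencing depth, which the lists do not give, so scores were turned into ranks within each list (rank 1 is the highest score). Many summits tie, with 627, 769, 273 and 269 distinct scores in the same order of lists. Positions are in the lists' own coordinates and counted from 1. They were joined to no gene and no sequence, because 93 summits lay up to 2453705 bp beyond where the genes of their chromosome end in GRCh38, the only build used here. The AREs and genes at these sites were therefore not analysed here.

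The isolated sites found in both SC lists numbered 968, and 27.4% of them were kept (Wilson 95% interval 24.7% to 30.3%). Over all sites shared by the SC lists, dense runs included, 34.0% were kept in at least 1 ZMYND8 KO list and 19.3% in both. These shares come from the contrast that chose the sites and are given as a description. Intervals treat sites as independent and cover counting error alone. No summit served more than 1 site, since the 265 sites matched 265 different SC replicate 2 summits, the 177 sites kept in ZMYND8 KO replicate 1 as many summits there and the 214 kept in replicate 2 as many there. The members made up 44.9% of each ZMYND8 KO list. Dense runs held a further 36.8% of replicate 1 and 28.9% of replicate 2. Among the 100 highest-ranking ZMYND8 KO summits, 29 of replicate 1 and 34 of replicate 2 were at isolated kept sites, against 67 and 58 in dense runs.

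Being kept followed the SC rank. Of the 40 isolated sites ranked up to 100 in SC replicate 1, 39 were kept (97.5%, 87.1% to 99.6%) and 36 of these in both ZMYND8 KO lists. At ranks from there to 200 the share was 72.1% of 68 sites (60.4% to 81.3%), and at ranks 501 to 1000 it was 22.7% of 264 sites (18.1% to 28.2%). Below rank 1000, 29 of 378 sites were kept (7.67%, 5.39% to 10.8%), with 7 of them in both lists. Ranked by SC replicate 2, 37 of the 39 sites up to rank 100 were kept (94.9%) and 20 of the 254 sites below rank 2000 (7.87%). Kept sites thus reached far down both SC lists, to rank 1945 of 2030 and rank 6263 of 6816. Within each class of ranks in SC replicate 1 the kept sites also had the better median rank in SC replicate 2. At ranks 301 to 500, for example, it was 490, against 742 for the sites without a ZMYND8 KO summit. The classes are wide, and ranks in SC replicate 1 were not matched within them. At ranks up to 100 only 1 site was not kept.

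**Figure D1:**
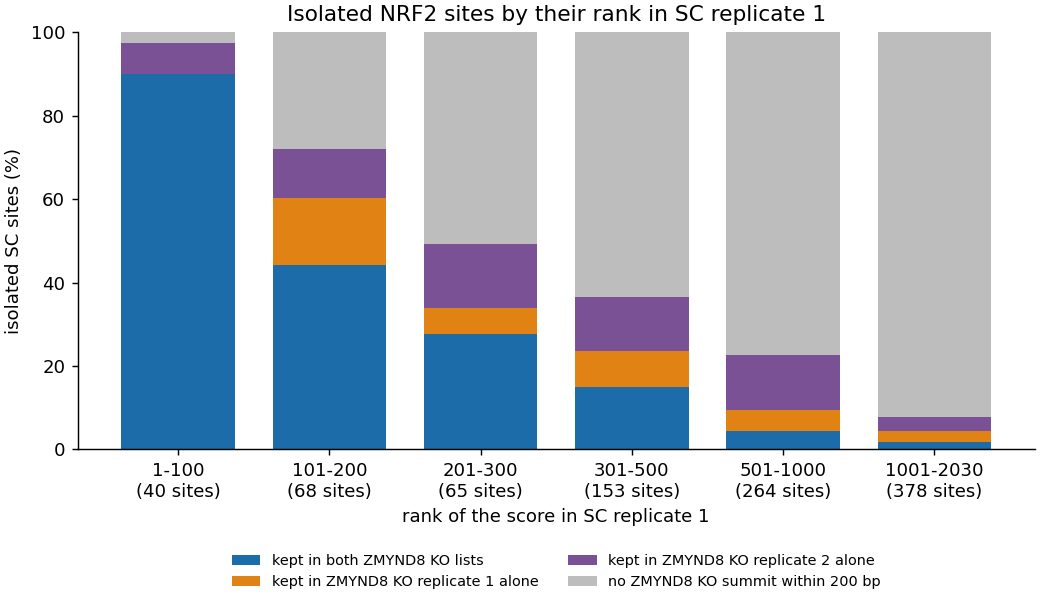
Bars give the percentage of isolated sites shared by the SC lists (y axis) in 6 classes of their rank in SC replicate 1 (x axis, number of sites below), split by where a ZMYND8 KO summit lay within 200 bp. The kept share falls from 97.5% at ranks up to 100 to 7.67% below rank 1000, and sites kept in both lists make up most of the kept share only in the first 3 classes.

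The distance limit cut through a continuous range. The 5 members just inside it had their nearest ZMYND8 KO summit at 160, 164, 165, 195 and 195 bp, and the 5 sites just outside at 210, 212, 219, 223 and 223 bp. Their ranks in SC replicate 1 ran from 140 to 1033 inside and from 218 to 1592 outside. In all, 62 isolated SC sites without a ZMYND8 KO summit within 200 bp had one at 201 to 1000 bp. A further 42 isolated SC replicate 1 summits had a ZMYND8 KO summit but no SC replicate 2 summit within 200 bp, and for 33 of these it lay at 201 to 1000 bp. The limit on runs also left some neighbours in, as 14 of the 265 kept sites had 3 other SC replicate 1 summits within 50 kb and 142 had none.

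The sites kept in both ZMYND8 KO lists are described first, by the 10 with the best mean rank over the 4 lists, expressed in percent of each list. Chromosome 19 at 10613465 came first. Its score was 83.3 in SC replicate 1 and 107 in SC replicate 2, and 54.7 and 73.5 in ZMYND8 KO replicates 1 and 2, which are ranks 21, 17, 23 and 6. It stood among the 25 highest summits of every list. The other chromosome 19 site among the 10, at 49467196, had scores of 110 and 93.4 in SC and 49.5 and 41.2 in ZMYND8 KO, at ranks 17, 20, 29 and 27.

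Chromosome 20 held 3 of the 10 sites. At 36007657 the scores were 98.2 and 87.2 in SC and 40.1 and 34.7 in ZMYND8 KO, with ranks 18, 23, 39 and 34. At 57100057 they were 52.3 and 89.2 against 42.2 and 36.0, with ranks 42, 21, 37 and 33. At 48909366 they were 58.9 and 62.0 against 30.0 and 41.4, with ranks 31, 32, 56 and 26. For each of these chromosome 20 sites both SC scores were above both ZMYND8 KO scores, but the ranges of the ranks overlapped at 57100057 and 48909366. Library depth is not given, so the higher SC scores cannot be told apart from a difference in depth.

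On chromosome 9, the site at 113019133 had scores of 75.6 and 76.7 in SC and 32.8 and 30.8 in ZMYND8 KO, with ranks 23, 25, 50 and 39. The other, at 66971231, had scores of 72.7 and 59.7 against 51.1 and 48.3, with ranks 26, 36, 25 and 17. The SC ranks were better at the first, and both ZMYND8 KO ranks were better at the second. Its 4 summits lay within 6 bp of each other.

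The remaining 3 sites lay on chromosomes 1, 3 and 11. Chromosome 1 at 110262196 ranked 36 in SC replicate 1, 26 and 11 in ZMYND8 KO, but 163 in SC replicate 2, where its score was 23.7 against 55.6, 50.7 and 57.7 in the others. Chromosome 3 at 17443609 ranked 14, 14 and 12 in SC replicates 1 and 2 and ZMYND8 KO replicate 1, with scores of 126, 143 and 220, but 100 in ZMYND8 KO replicate 2 with a score of 17.7. Chromosome 11 at 61739494 had scores of 31.6 and 46.7 in SC and 32.6 and 36.0 in ZMYND8 KO, at ranks 97, 56, 51 and 32. At the chromosome 3 site the ZMYND8 KO replicates differed more from each other than the SC and the better ZMYND8 KO list did.

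Across all 126 sites kept in both lists, the median rank was 194 in SC replicate 1 (range 14 to 1406) and 209.5 in SC replicate 2 (14 to 3932). It was 178 in ZMYND8 KO replicate 1 (12 to 392) and 171 in ZMYND8 KO replicate 2 (6 to 476). In percent of the list these medians were 9.56%, 3.07%, 45.2% and 35.8%. The median ranks were thus close in all 4 lists, and the percentages differed with the length of the lists.

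Sites kept in 1 list stood lower than sites kept in both, in every list that held them. The 51 sites kept in ZMYND8 KO replicate 1 alone had median ranks of 448 and 375 in the SC lists and 261 in their ZMYND8 KO list. The 88 kept in replicate 2 alone had median ranks of 537 and 604.5 in SC and 321 in theirs. Only 23.5% and 28.4% of these sites reached the upper 50% of their ZMYND8 KO list, against 57.1% and 69.0% of the sites kept in both. No site kept in replicate 1 alone ranked among the 100 highest of that list, and 1 site kept in replicate 2 alone did. For most sites kept in 1 list the other list had nothing close by. No summit of replicate 2 lay within 10 kb of 40 of the 51, and none of replicate 1 within 10 kb of 82 of the 88. For 11 and 4 of them the other list had a summit at 201 to 1000 bp.

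The 5 best-ranked sites kept in 1 list were all kept in ZMYND8 KO replicate 2. Chromosome 4 at 8305670 had scores of 43.0 and 37.5 in SC (ranks 54 and 77) and 29.7 in ZMYND8 KO replicate 2 (rank 41). The nearest summit of ZMYND8 KO replicate 1 lay 254 bp away, just past the limit. Chromosome 13 at 110790612 had scores of 32.1 and 32.3 in SC and 16.3 in ZMYND8 KO replicate 2, and the nearest replicate 1 summit was 36881714 bp away. The sites on chromosome 5 at 57703162, chromosome 8 at 123607796 and chromosome 17 at 17319800 ranked from 77 to 165 in the SC lists and from 138 to 189 in ZMYND8 KO replicate 2. At these 3 sites the nearest replicate 1 summit lay over 1 Mb away. Apart from the chromosome 4 site, ZMYND8 KO replicate 1 thus had no summit in the neighbourhood of these sites.

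**Figure D2:**
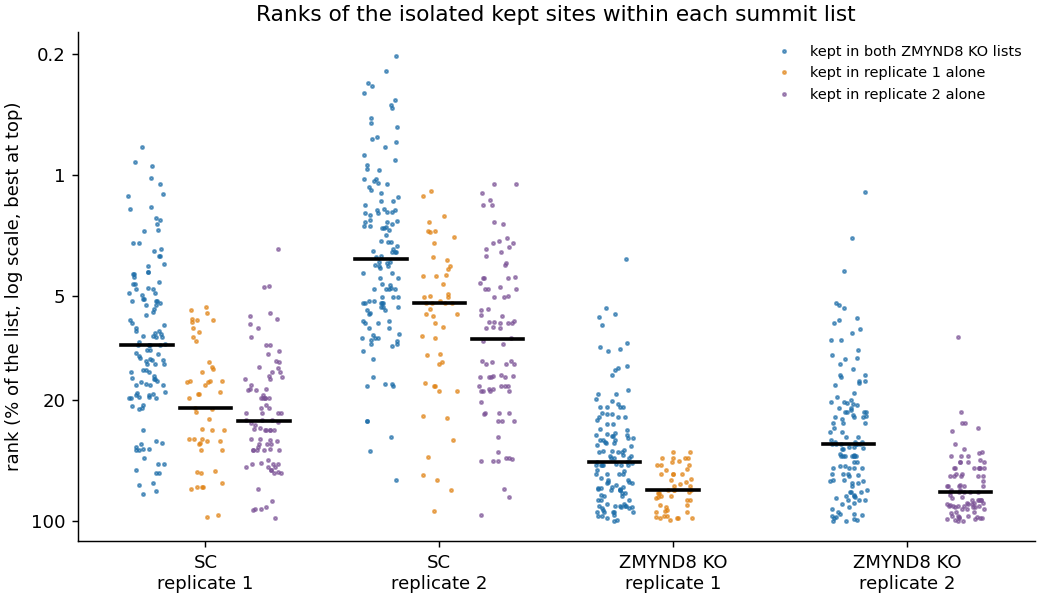
Points are the isolated kept sites, placed by their rank in percent of the list (y axis, log scale, best at top) in each of the 4 lists (x axis), coloured by the ZMYND8 KO lists that kept them, and black lines are medians. The medians of the sites kept in both lists are 9.56% and 3.07% in SC and 45.2% and 35.8% in ZMYND8 KO, above those of the sites kept in 1 list in each list.

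The order of the sites was compared next. All 229 sites with a summit in all 4 lists, dense runs included, were given a place by their score in each list (place 1 is the highest), so that lists of unequal length stand on 1 scale. Over the 126 isolated sites the median difference of places was 21.2 between the SC lists and 27.5 between the ZMYND8 KO lists. Across the genotypes it ran from 26.5 to 39.0. Spearman's correlation of the scores over these sites, given as a description since the sites share libraries, was 0.80 between the SC lists, 0.59 between the ZMYND8 KO lists, and 0.52 to 0.62 across the genotypes. In places, ZMYND8 KO replicate 1 thus stood about as far from its own replicate (27.5) as from SC replicate 1 (26.5).

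At 23 of the 126 sites both ZMYND8 KO places were higher than both SC places (18.3%), where 20.5% of all 229 sites did so. At 33 both SC places were higher (26.2%), against 19.7% of all 229 sites, and at 70 the places overlapped. The shares of the isolated sites had intervals of 12.5% to 25.9% and 19.3% to 34.5%. Both include the share over all 229 sites, but these 126 are a part of that total, so the inclusion decides nothing. Among the other 103, in dense runs, 24 were higher in both ZMYND8 KO lists (23.3%, 16.2% to 32.3%) and 12 in both SC lists (11.7%, 6.79% to 19.3%). The isolated sites were thus more often higher in SC than those in dense runs as counted, a difference that was not tested. Places were counted over all 229 sites jointly, so a rise of the sites in dense runs lowers the isolated ones. For a single site, 2 libraries against 2 allow no exact permutation p (two-sided) below 0.33, so no shift of a single site can pass a threshold. Both counts rose when a library was left out, since fewer places then have to differ.

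The sites with the largest shifts were picked after their values were seen. Chromosome 6 at 1325661 fell the most in ZMYND8 KO, with places 48 and 78.5 in SC and 200.5 and 223 in ZMYND8 KO. Its scores were 42.3 and 33.7 in SC and 5.72 and 3.43 in ZMYND8 KO, the latter at ranks 298 of 394 and 449 of 477. Chromosome 17 at 75283153 had places 67.5 and 46 against 210 and 135, and chromosome 6 at 32938104 had places 83 and 81 against 186 and 197. These sites ranked 56, 76 and 93 in SC replicate 1 and remained callable in both ZMYND8 KO lists at much lower places.

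In the other direction, chromosome 11 at 91129674 had the largest shift. Its places were 152 and 178.5 in SC and 31 and 59.5 in ZMYND8 KO, with scores of 17.1 and 13.9 in SC and 40.1 and 22.9 in ZMYND8 KO. Chromosome 18 at 9869828 moved from places 226 and 206 to 118 and 97, and chromosome 9 at 123446950 from 131.5 and 150.5 to 32 and 39.5. At the last of these the raw scores were also higher in ZMYND8 KO, at 39.0 and 29.3 against 21.0 and 18.1. All 3 had higher scores in both ZMYND8 KO lists than in both SC lists, which cannot be told apart from a difference in depth. The median score of the whole list was also higher in ZMYND8 KO, at 9.86 and 8.69 against 6.16 and 3.65 in SC.

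**Figure D3:**
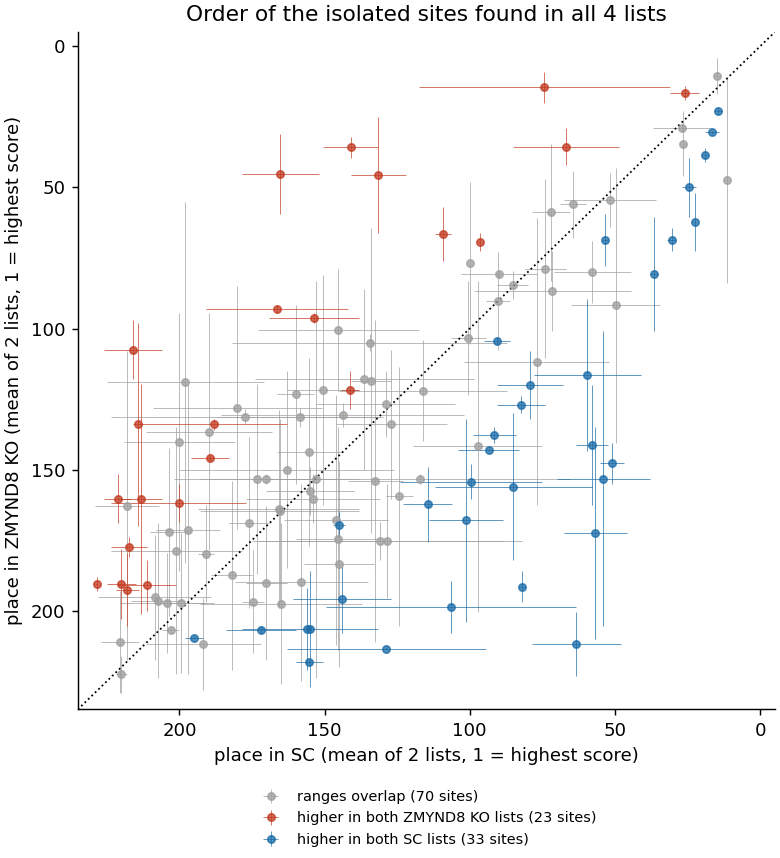
Each point is 1 of the 126 isolated sites found in all 4 lists, at its mean place in the SC lists (x axis) and in the ZMYND8 KO lists (y axis), where place 1 is the highest score among 229 sites and lines span the 2 replicates. The 23 sites higher in both ZMYND8 KO lists lie above the dotted line of equal places and the 33 higher in both SC lists below it, while 70 have overlapping ranges.

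The distances between the summits of a site are given as a description, since the rule held every summit to within 200 bp of that of SC replicate 1. At the 126 sites the median distance between summits was 24.0 bp for the SC lists and 22.5 bp for the ZMYND8 KO lists, and from 25.5 to 34.0 bp across the genotypes. Within 50 bp of each other were 71.4% of the SC pairs, 70.6% of the ZMYND8 KO pairs and 63.5% to 69.8% of the mixed pairs. Over all 126 sites the signed distance had a median between −4.00 and 4.50 bp in all 6 pairs of lists. The 4 summits of a site spanned a median of 64.5 bp (range 6 to 307), and 58.0 bp in the 63 sites better ranked in SC replicate 1 against 83.0 bp in the other 63.

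At 5 sites all 4 summits fell within 10 bp. They lay on chromosome 1 at 121484125, on chromosome 9 at 66971231 and 66800814, on chromosome 18 at 108231 and on chromosome 20 at 5046616. The chromosome 1 site was called at base 121484119 in each of the other 3 lists and ranked 68, 80, 53 and 78. It lay 1180 bp from the longest stretch of chromosome 1 without an SC summit, 21051308 bp long. The chromosome 9 sites lay 514728 and 344311 bp from the equivalent stretch of 20727296 bp. The chromosome 18 and 20 sites were 64828515 and 8328441 bp from theirs. Within 1 Mb of the longest such stretch of its chromosome lay 16 of the 265 kept sites (6.04%, 3.75% to 9.58%). Of the 703 sites without a ZMYND8 KO summit, 17 did (2.42%, 1.52% to 3.84%). Chromosomes 1 and 9 held 5 each of the kept sites, and every other chromosome held 1 or 0. The 5 on chromosome 1 lay between 121354304 and 121484125, and the interval treats such neighbours as independent. The higher share of kept sites thus rests on 2 chromosomes. The stretches were bounded by summits of the same SC lists that gave the sites. A short or long distance to them therefore does not tell what lies at a site. What these stretches hold, and the part of misplaced reads, was not tested.

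**Figure D4:**
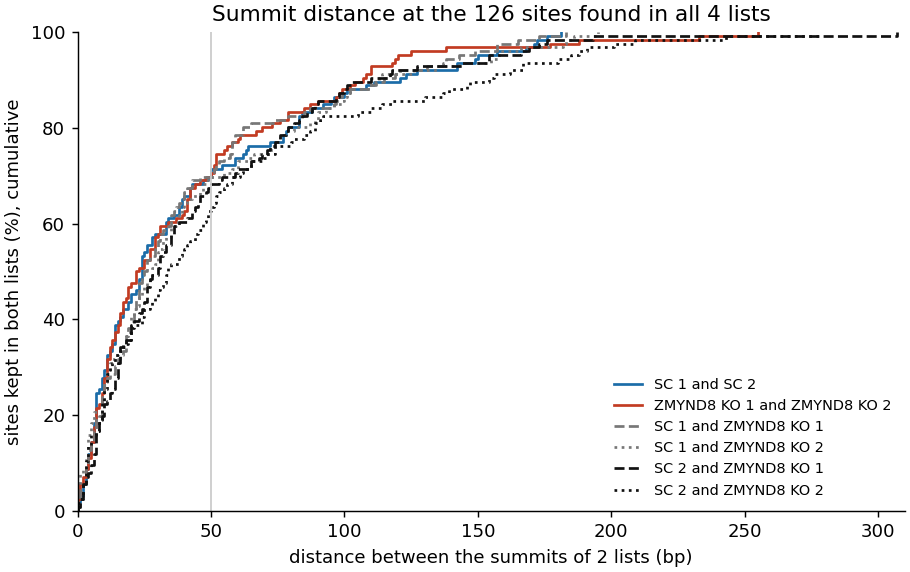
Lines give the cumulative percentage of the 126 sites found in all 4 lists (y axis) whose summits in 2 lists lay within the distance on the x axis (bp), for each of the 6 pairs of lists, with 50 bp marked. The 6 lines run close together, with 63.5% to 71.4% of the sites within 50 bp.

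Further summits beside the kept sites were more frequent in both SC libraries than in both ZMYND8 KO libraries. A further summit of the same list within 1000 bp accompanied 48 of the 126 sites in SC replicate 1 (38.1%, 30.1% to 46.8%) and 54 in SC replicate 2 (42.9%, 34.6% to 51.6%). In ZMYND8 KO replicates 1 and 2 these were 7 (5.56%, 2.72% to 11.0%) and 8 (6.35%, 3.25% to 12.0%). The means were 40.5% ± 3.37 in SC and 5.95% ± 0.561 in ZMYND8 KO (SD, n = 2 each), a difference of 34.5 percentage points (p = 0.33 by an exact permutation test, two-sided, the lowest value in reach of 2 libraries against 2). The rule did not use the further summits of SC replicate 2 or of ZMYND8 KO, but by dropping dense runs it limited those of SC replicate 1, and no kept site had 4 others within 50 kb. Isolated sites without a ZMYND8 KO summit also had further SC replicate 1 summits within 1000 bp, at 179 of 703 (25.5%, 22.4% to 28.8%). That share was not counted in the other lists. Whether the difference between the genotypes is particular to the kept sites was not tested.

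At 22 sites both SC lists and neither ZMYND8 KO list had a further summit, and the reverse occurred at 0 of the 126 sites. The reverse could have occurred at 7 sites at most, since no more had a further summit in ZMYND8 KO replicate 1. These counts were not made over other sites, so they are not a trait of the kept sites. Among the 22 were chromosome 9 at 113019133, chromosome 20 at 57100057 and chromosome 11 at 61739494, all of the 10 best-ranked sites. A single site, on chromosome 7 at 139615722, had a further summit in all 4 lists. The difference was smaller in shortened lists, which hold fewer further summits and fewer of the sites. With the 300 highest summits of each list alone, 52 of the sites remained in all lists and 4, 1, 2 and 1 of them had a further summit, in the order given above, a difference in means of 1.92 percentage points with overlapping libraries. At a score of at least 10 it was 9.43 points, and within 500 bp it was 15.1 points. The length of the SC lists and the genotype cannot be told apart here.

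**Figure D5:**
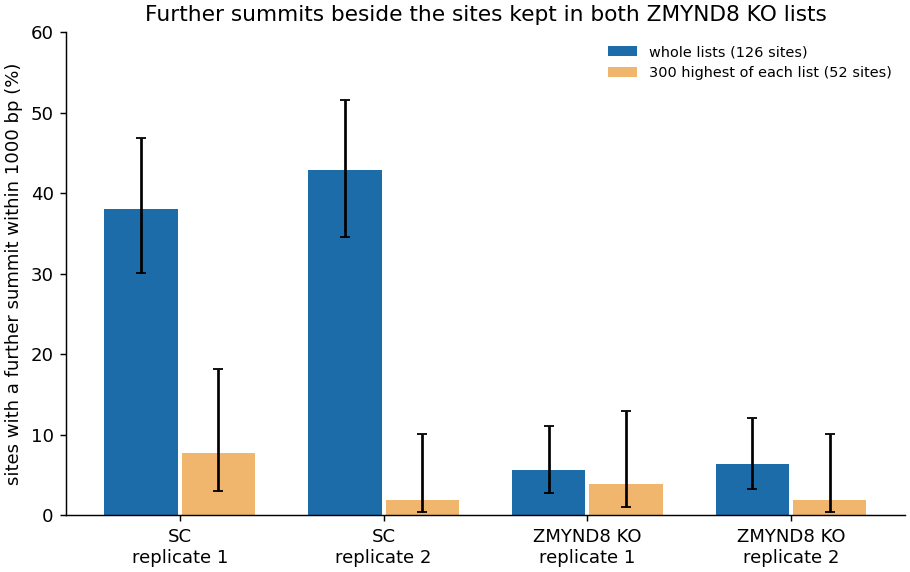
Bars give the percentage of sites kept in both ZMYND8 KO lists with a further summit of the same list within 1000 bp (y axis), per list (x axis), for whole lists (126 sites) and for the 300 highest summits of each list (52 sites), with Wilson 95% intervals. Whole lists give 38.1% and 42.9% in SC against 5.56% and 6.35% in ZMYND8 KO, and the intervals of all 4 lists overlap for the 300 highest.

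Kept sites were spread over chromosomes 1 to 22 and X. Chromosome 1 held the most, 37 of its 93 isolated SC sites (39.8%, 30.4% to 49.9%), followed by 18 each on chromosomes 2, 6, 8 and 11. The highest share was on chromosome 4, with 14 of 31 (45.2%, 29.2% to 62.2%), and the lowest on chromosome 21, with 1 of 18 (5.56%, 0.988% to 25.8%). No site on chromosomes 13, 15 and 21 was kept in both lists, out of 17, 25 and 18 isolated SC sites. Over all chromosomes 126 of 968 were kept in both (13.0%). Whether chromosomes 13, 15 and 21 depart from that share was not tested. The intervals of most chromosomes overlap, but those of some do not, such as chromosomes 4 and 21, which were picked as the extremes. No test was made. Another SC replicate 1 summit lay within 1000 bp of 33.6% of the kept sites (28.2% to 39.5%) and of 25.5% of the sites without a ZMYND8 KO summit (22.4% to 28.8%). The SC summits also lay closer to each other at kept sites, with a median distance of 24.0 bp at sites kept in both and 45.0 bp at sites without a ZMYND8 KO summit. Within classes of SC replicate 1 rank the order varied. At ranks 201 to 1000 the medians were 32.0 to 36.0 bp for kept sites and 34.0 to 39.5 bp for the others. At ranks up to 100 the median was 14 bp for kept sites, against 5 bp for the single site not kept. From there to rank 200 kept sites were closer, at 15 against 26 bp, and below rank 1000 they were farther apart, at 76 against 58 bp.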

How the data were processed

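NRF2 ChIP-Seq of 4 libraries was analysed, grouped by their titles into SC and ZMYND8 KO. According to the submitters' processing notes, the tools were FastQC 0.11.2, Bowtie2 2.2.3, Picard 1.127 and MACS2 2.0.10, and the builds hg19 and hg38, with no role given. The authors called peaks in each library and deposited the position of each summit in bp and a score, taken here for a −log10 q-value. No control library or depth is given in the sources used here, so the precision that depth would give is unknown.

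Summits were matched to the nearest summit of each other list. Members and lists of comparisons were chosen with earlier results of these data known. Sites named are the 10 best by mean rank in both ZMYND8 KO lists, the 5 best in 1 list, and 5 on each side of the distance limit. Those chosen after their values were seen are marked. Planned results on the ARE core, transcription starts, named genes and the ARE share per library were not run, since no genome of the lists' build was used. The functions were tested on simulated data. Python 3.11.15, numpy 2.4.6, pandas 2.3.3, scipy 1.17.1 and matplotlib 3.10.9 were used. The exact permutation test over libraries was two-sided, and p-values measure only the spread between these libraries, which may be technical.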

Additional observations from a re-analysis of the deposited data

How the results depend on the processing

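The number of kept sites depended most on the threshold and the distance. At 1000 bp there were 441 kept sites and 229 in both lists, with a score of at least 10 in every list 91 and 53, with the 300 highest summits of each list 82 and 52, and with dense runs kept 404 and 229. At 100 bp and 500 bp the counts were within 1.5 times. Leaving out 1 library, the kept sites ran from 177 to 307 and those in both lists from 110 to 139, and without a ZMYND8 KO library the latter has no value.

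The alternatives that follow were added after the data were seen. Sites placed higher in both ZMYND8 KO lists numbered 26, and in both SC lists 32, with places counted among the isolated sites alone. They numbered 11 and 16 over the 53 isolated sites with a score of at least 10 in every list, where fewer sites are counted. Leaving out 1 library they ran from 37 to 48 and from 45 to 53, as 3 lists separate more easily than 4. The first count was 37 without SC replicate 1, 39 without SC replicate 2, 48 without ZMYND8 KO replicate 1 and 41 without ZMYND8 KO replicate 2, and the second was 53 without either ZMYND8 KO library.

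The difference in the mean share of sites with further summits was above 0 in all its alternatives, from 1.92 to 41.3 percentage points, but the lowest, from the 300 highest summits of each list, was 1.92% and 7.69% in SC against 1.92% and 3.85% in ZMYND8 KO, so the libraries overlapped. With the replicate block it was 34.5 points, higher in SC in both of 2 pairs (p = 0.5 by an exact sign permutation test, two-sided, the lowest value in reach of 2 pairs). Same-numbered libraries deviated together with a correlation of 0.095 over the 126 sites, and nothing says that the numbers mark a shared batch. Alternatives for the ARE core, transcription starts and the ARE share per library were not run. Unknown depth limits every count, and the lists' lengths move with the genotype.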
